A study of Mus musculus with 12 samples.

Results

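The expression of 10 genes that govern entry into the cell cycle was examined in pre-selection CD4+CD8+ thymocytes with normal or altered Bcl11b. The genes were chosen by symbol and comprise the D-type cyclins Ccnd1, Ccnd2 and Ccnd3, their kinases Cdk4 and Cdk6, the CDK inhibitors Cdkn1a, Cdkn1b, Cdkn2c and Cdkn2d, and Myc. All 10 were among the 23234 features of the expression table. CD24hiTCRβlo CD4+CD8+ cells, which have not yet undergone positive selection, were sorted from C57BL/6 mice according to the source names, descriptions and methods of the study. The extraction protocol in the labels describes another sort, of DN NKT cells. Cd4 was at 281 FPKM or more and Cd8b1 at 781 FPKM or more in every library. There were 5 libraries from wild-type newborn mice and 3 libraries from newborn Bcl11bm/m mice, homozygous for an allele with a frameshift whose product lacks the last zinc finger. A further 4 libraries, titled cKO and called so here, came from Bcl11bfl/fl:Cd4-Cre mice, whose age is not given and in which Cre, driven by the Cd4 promoter, removes Bcl11b at the CD4+CD8+ stage. The titles and the design of the deposit gave these genotypes, since the descriptions of the wild-type and cKO libraries name other genotypes than the titles do. The labels do not say whether each library is a separate animal, so that p-values measure the spread between these libraries.

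D-type cyclins bind CDK4 and CDK6, and the complexes phosphorylate the retinoblastoma protein, which releases E2F transcription factors and opens the way to S phase. The INK4 inhibitors p18 (Cdkn2c) and p19 (Cdkn2d) bind CDK4 and CDK6, whereas p21 (Cdkn1a) and p27 (Cdkn1b) of the Cip/Kip family act mainly on cyclin and CDK2 complexes. Myc is a transcription factor of cell growth. In the thymus, cyclin D3 serves the expansion of immature cells after β-selection, and CD4+CD8+ cells then come to rest before positive selection.

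Levels are given as FPKM, fragments normalised to transcript length and to the number of mapped fragments, so that genes can be set side by side. Differences are between group means of log2(FPKM + 1), tested with limma and adjusted over all 10780 features whose mean across all 12 libraries reached 1 FPKM. 8 of the 10 genes passed this filter, and Ccnd2 and Cdkn1a did not. The depth, estimated from the steps of low FPKM values, was 4030000 to 6950000 fragments in wild-type, 2740000 to 4230000 fragments in Bcl11bm/m and 10860000 to 46160000 fragments in cKO libraries. Depth, age and genotype therefore cannot be told apart in comparisons with cKO cells. Wild-type replicate 1 stood somewhat apart, with a median correlation across genes of 0.912 with its group, against 0.927 to 0.934 for the other wild-type libraries, and with 17.17% of its FPKM in short RNAs. Bcl11b itself had 218 ± 72.5 FPKM (SD, n = 5) in wild-type, 449 ± 28.9 (n = 3) in Bcl11bm/m and 130 ± 11.1 (n = 4) in cKO cells. It had 132, 286, 292, 158 and 223 FPKM in the 5 wild-type, 430, 434 and 482 in the 3 Bcl11bm/m and 127, 140, 136 and 115 in the 4 cKO libraries, so that wild-type replicate 1 lay within the cKO range. These values sum over the whole gene and do not show which exons or allele the fragments came from. The pre-selection markers Cd4, Cd8a, Cd8b1, Rag1, Rag2, Dntt, Cd24a and Cd3e were expressed in all libraries, with a summed level of 5081 to 7048 FPKM in wild-type, 3679 to 4221 in Bcl11bm/m and 3703 to 5499 in cKO libraries. In bulk RNA, fewer cells of a type and less RNA per cell cannot be told apart.

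The changes of these genes were few and differed by gene. Ccnd3 fell in both mutants, to less than the lowest wild-type library in all 7 mutant libraries. Myc rose in Bcl11bm/m cells, where its level was 4.1 times that of wild-type, and was also higher there than in cKO cells. The INK4 genes Cdkn2c and Cdkn2d fell in cKO cells. In Bcl11bm/m against wild-type cells 2 of the 8 tested genes were called, 1 lower and 1 higher, beside 17.3% of all tested features (9.92% higher and 7.39% lower). In cKO against wild-type cells 3 of 8 were called, all lower, beside 14.5% of features (4.65% higher and 9.86% lower). Between the mutants 1 of 8 was called, Myc, beside 10.2% of features (7.63% higher and 2.6% lower in Bcl11bm/m). With 8 tested genes these counts are a description and were not set against the background in a test.

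The direction of calls over all features depended on the scaling of the libraries. In Bcl11bm/m against wild-type cells 1069 features were higher and 797 lower as deposited, 1218 and 1257 after quantile normalization, and 1530 and 837 without short RNAs. In cKO against wild-type cells 501 features were higher and 1063 lower as deposited, 834 and 966 after median-ratio scaling, and 969 and 865 without short RNAs. In Bcl11bm/m against cKO cells 822 were higher and 280 lower as deposited, and 565 and 531 after median-ratio scaling. That scaling moved the median difference of all features in this comparison from 0.09 to -0.01. The 6 calls on the genes examined here kept their direction and their call under median-ratio scaling, quantile normalization and removal of short RNAs.

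**Figure D1:**
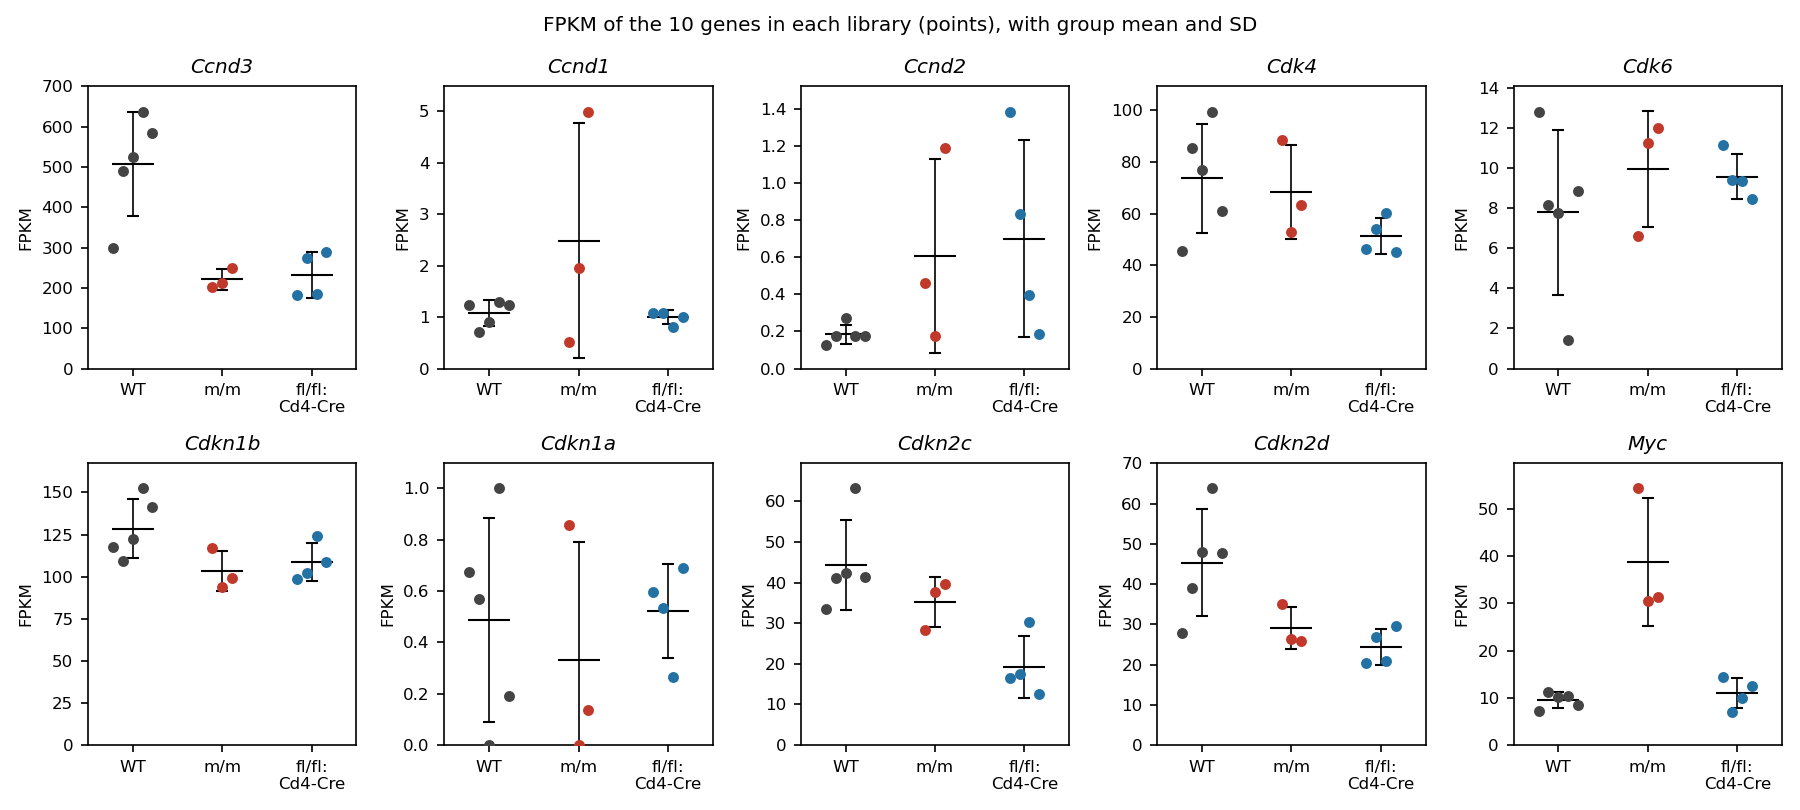
Level of each of the 10 genes in FPKM (y axes, each from 0) in wild-type (WT, n = 5), Bcl11bm/m (m/m, n = 3) and Bcl11bfl/fl:Cd4-Cre (n = 4) libraries. Points are libraries, horizontal bars are group means and whiskers are SDs, ending at 0 where the SD is larger than the mean. The 7 mutant libraries lie below all wild-type libraries for Ccnd3, and the 3 Bcl11bm/m libraries lie above all others for Myc.

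The genes lie apart from each other in the genome (mm9). Ccnd3 spans chr17:47642000-47736632 on the plus strand and Cdkn1a chr17:29227924-29237667 on the plus strand. Cdkn1b lies at chr6:134870419-134875531 (plus) and Ccnd2 at chr6:127075797-127101066 (minus). Cdk4 lies at chr10:126500590-126504976 (plus), Cdk6 at chr5:3343893-3523218 (plus), Cdkn2c at chr4:109333481-109339794 (minus), Cdkn2d at chr9:21092907-21095653 (minus), Ccnd1 at chr7:152115836-152125774 (minus) and Myc at chr15:61816946-61821929 (plus). Annotated genes overlap 5 of them, namely Bysl with Ccnd3, Tspan31 with Cdk4, Gm17590 with Cdk6, Oraov1 with Ccnd1 and 9330179D12Rik with Ccnd2. It is not stated whether strand was used in the quantification, and fragments from these overlaps may have been assigned to either gene.

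Promoter windows of 250 bases before an annotated start were read from RefSeq (GRCm38.p6), in which 7 of the 10 symbols had an entry. Ccnd1, Ccnd2 and Myc had none. Shown are the windows of the 3 genes that fell together in cKO cells, and that of Cdk4, whose window held the most matches to the letters searched. Both strands were searched for ACCACA or ACCGCA (the Runx motif), CACGTG (the E-box that Myc and Max bind), TTTNNCGC (a form of the E2F motif) and CCAAT, and matches are in capitals. Of all 32851 windows of this length, 18.6% held the Runx letters, 6.02% the E-box, 4.28% the E2F letters and 33.8% CCAAT. The windows run 5′ to 3′ on the strand of the gene and end at the base before the start. They lie at chr17:47593217-47593466 (plus, the downstream of 2 Ccnd3 windows), chr4:109666757-109667006 (minus, the upstream of 2 Cdkn2c windows), chr9:21291210-21291459 (minus, Cdkn2d) and chr10:127063285-127063534 (plus, Cdk4).
Ccnd3: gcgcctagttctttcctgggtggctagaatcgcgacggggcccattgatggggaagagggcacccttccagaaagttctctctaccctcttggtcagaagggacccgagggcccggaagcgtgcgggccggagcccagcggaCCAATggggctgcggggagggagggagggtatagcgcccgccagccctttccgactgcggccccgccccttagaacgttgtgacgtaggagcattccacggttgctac
Cdkn2c: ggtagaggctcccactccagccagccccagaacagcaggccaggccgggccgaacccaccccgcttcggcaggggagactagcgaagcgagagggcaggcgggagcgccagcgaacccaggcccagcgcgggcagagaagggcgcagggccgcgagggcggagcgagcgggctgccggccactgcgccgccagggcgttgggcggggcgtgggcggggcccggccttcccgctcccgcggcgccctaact
Cdkn2d: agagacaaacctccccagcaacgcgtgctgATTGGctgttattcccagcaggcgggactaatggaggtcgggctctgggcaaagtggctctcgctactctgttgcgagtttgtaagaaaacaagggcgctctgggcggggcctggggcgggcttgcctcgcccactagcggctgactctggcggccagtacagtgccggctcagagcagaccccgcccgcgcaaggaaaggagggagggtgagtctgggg
Cdk4: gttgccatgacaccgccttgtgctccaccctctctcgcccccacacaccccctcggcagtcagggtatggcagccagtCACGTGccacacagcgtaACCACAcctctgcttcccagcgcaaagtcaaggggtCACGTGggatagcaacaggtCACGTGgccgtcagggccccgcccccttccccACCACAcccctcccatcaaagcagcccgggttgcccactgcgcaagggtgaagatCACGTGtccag

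Among these windows that of Cdk4 held 4 E-boxes and 2 matches to the Runx letters. The windows of Ccnd3 and Cdkn2d each held 1 CCAAT match, at 108 to 104 and at 220 to 216 bases before the start, and that of Cdkn2c held no match to the 4 motifs. No motif was common to the 3 genes that fell together. A match is a description of the letters and does not show that a factor binds there.

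Of the D-type cyclins, Ccnd3 was by far the most abundant in every library. It accounted for 99.5 to 99.8% of the summed D-cyclin FPKM in wild-type, 97.6 to 99.5% in Bcl11bm/m and 98.7 to 99.6% in cKO libraries. Wild-type cells had 299, 491, 526, 637 and 584 FPKM in replicates 1 to 5. In Bcl11bm/m replicates 1 to 3 it was 201, 213 and 251 FPKM. In cKO replicates 1 to 4 it was 182, 274, 186 and 290 FPKM. Every mutant library was below every wild-type library, the nearest being cKO replicate 4 (290 FPKM) and wild-type replicate 1 (299 FPKM).

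The mean Ccnd3 level was 507 ± 129 FPKM in wild-type, 221 ± 25.9 in Bcl11bm/m and 233 ± 56.9 in cKO cells. It fell by 1.15 on the log2 scale in Bcl11bm/m cells (SE 0.25, adjusted p = 0.015 by limma, lower in 3 of 3 libraries), where the wild-type mean was 2.29 times as high. In cKO cells it fell by 1.11 (SE 0.25, adjusted p = 0.0176, lower in 4 of 4 libraries). Between the mutants the difference was -0.05 (SE 0.20, adjusted p = 0.901). Both calls were lost when single mutant libraries were left out, with an adjusted p of 0.0612 without Bcl11bm/m replicate 1, 0.0655 without Bcl11bm/m replicate 2, 0.0639 without cKO replicate 1 and 0.0572 without its replicate 3. Without wild-type replicate 1 the falls were 1.33 and 1.29 on the log2 scale (adjusted p = 0.0011 and 0.0049). Over all alternatives the difference ran from -1.33 to -0.95 in Bcl11bm/m cells (adjusted p from 0.000556 to 0.161) and from -1.29 to -0.93 in cKO cells (adjusted p from 0.00182 to 0.0639).

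Ccnd1, the D cyclin that growth factor signals induce in many adherent cells, was near 1 FPKM. It had 0.720 to 1.29 FPKM in wild-type and 0.807 to 1.09 FPKM in cKO libraries. In Bcl11bm/m replicates 1 to 3 it had 0.508, 1.95 and 4.99 FPKM, about 5, 28 and 75 fragments, so that 2 libraries lay above and 1 below all wild-type libraries. The difference of 0.53 from wild-type did not pass the test (SE 0.38, adjusted p = 0.392 by limma). It was 1.03 with an adjusted p of 0.0498 without Bcl11bm/m replicate 1, the library with the lowest value. Without Bcl11bm/m replicate 3, the library with the highest value, it was 0.03 (adjusted p = 0.962). The adjusted p ran from 0.0419 to 0.962 over the alternatives. In cKO cells the difference was -0.05 (adjusted p = 0.842).

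Ccnd2, the D cyclin of mitogen-stimulated lymphocytes, was lower still and did not pass the filter on low values. Its level was 0.129 to 0.270 FPKM in wild-type libraries, which rest on 4 to 6 fragments each. Bcl11bm/m replicates 1 to 3 had 0.459, 0.174 and 1.19 FPKM (7, 4 and 28 fragments), and cKO replicates 1 to 4 had 1.38, 0.833, 0.398 and 0.185 FPKM (351, 50, 38 and 14 fragments). 5 of the 7 mutant libraries lay above all wild-type libraries, and the other two lay among them. In the fit without that filter the Ccnd2 difference was 0.39 in Bcl11bm/m (adjusted p = 0.246 by limma) and 0.47 in cKO cells (adjusted p = 0.156), and -0.08 between the mutants. The log2 ratio of Ccnd3 to Ccnd2, on FPKM + 1, was 8.05 to 9.09 in wild-type, 6.85 to 7.51 in Bcl11bm/m and 6.27 to 7.94 in cKO libraries, with no overlap between wild-type and either mutant. The ratio differed from wild-type by -1.54 in Bcl11bm/m and by -1.58 in cKO cells (two-sided exact permutation p = 0.0357 and 0.0159, the smallest that these group sizes allow). Adjusted over the 12 ratio tests made here, p was 0.214 and 0.190, and neither passed.

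Cdk4, the more abundant of the kinases, had 45.6, 85.3, 76.7, 99.5 and 61.0 FPKM in wild-type replicates 1 to 5. It had 88.6, 53.001 and 63.4 FPKM in Bcl11bm/m and 46.4, 54.0, 60.1 and 45.0 FPKM in cKO libraries. The groups overlapped, with 1 library of cKO below the wild-type range. The difference from wild-type was -0.09 in Bcl11bm/m (SE 0.27, adjusted p = 0.863) and -0.47 in cKO cells (SE 0.21, adjusted p = 0.167). The latter was -0.63 with an adjusted p of 0.0244 without wild-type replicate 1, which had the lowest Cdk4 of the wild-type libraries, and adjusted p ran from 0.0132 to 0.325 over the alternatives.

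Cdk6, the other kinase of the D cyclins, had means of 7.78 ± 4.10 FPKM in wild-type, 9.93 ± 2.91 in Bcl11bm/m and 9.57 ± 1.12 in cKO cells. Wild-type replicate 4 had 1.40 FPKM and wild-type replicate 1 had 12.8 FPKM, so that the wild-type group spanned the values of both mutants. The difference was 0.48 in Bcl11bm/m (adjusted p = 0.594) and 0.46 in cKO cells (adjusted p = 0.498). Without wild-type replicate 4 these differences were 0.06 and 0.045. Cdk6 accounted for 1.39 to 21.9% of the Cdk4 and Cdk6 sum in wild-type, 6.94 to 17.5% in Bcl11bm/m and 13.4 to 19.3% in cKO libraries. The log2 ratio of Cdk6 to Cdk4 differed by 0.57, 0.93 and -0.37 in the 3 comparisons, Bcl11bm/m against wild-type, cKO against wild-type and mutant against mutant (adjusted p from exact permutation tests 0.729, 0.551 and 0.729).

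Cdkn1b, which encodes p27, was the second most abundant of the 10 genes in every group. It had 118, 109, 122, 153 and 141 FPKM in wild-type, 117, 94.1 and 99.2 FPKM in Bcl11bm/m and 98.9, 102, 124 and 109 FPKM in cKO libraries. Mutant values lay within the wild-type range or below it. The differences were -0.31 in Bcl11bm/m (SE 0.14, adjusted p = 0.182) and -0.24 in cKO cells (SE 0.13, adjusted p = 0.258), and neither passed the test.

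Cdkn1a, which encodes p21 and is a p53 target, was listed at 0 in wild-type replicate 3 and Bcl11bm/m replicate 2, and at 1.0 FPKM or less elsewhere. These values rest on 23 fragments over the wild-type, 5 over the Bcl11bm/m and 81 over the cKO libraries. Where it was listed at 0, a limit of 3 fragments, taken on the shortest annotated coding transcript, allows up to 1.36 FPKM in the wild-type and 1.33 FPKM in the Bcl11bm/m library, counting error only. No difference in Cdkn1a was detectable at this depth. In the fit without the filter on low values the adjusted p was 0.781, 0.869 and 0.567 in Bcl11bm/m against wild-type, cKO against wild-type and mutant against mutant. The log2 ratio of Cdkn1b to Cdkn1a, on FPKM + 1, differed by -0.14, -0.31 and 0.17 in the 3 comparisons (adjusted p from exact permutation tests 0.729, 0.551 and 0.748).

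Cdkn2c, which encodes p18, had 33.4, 41.2, 42.5, 63.3 and 41.3 FPKM in wild-type replicates 1 to 5. It had 28.3, 37.6 and 39.8 FPKM in Bcl11bm/m replicates 1 to 3. In cKO replicates 1 to 4 it had 16.5, 17.4, 30.4 and 12.6 FPKM. All 4 cKO libraries lay below the wild-type libraries, and replicate 3, the highest of them, lay among the Bcl11bm/m values.

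In cKO cells the mean Cdkn2c level was 19.2 ± 7.73 FPKM against 44.3 ± 11.2 in wild-type, and it fell by 1.21 on the log2 scale (SE 0.25, adjusted p = 0.0124 by limma, lower in 4 of 4 libraries). The call held without any 1 library, with adjusted p from 0.0095 to 0.0478. In Bcl11bm/m cells the mean was 35.2 ± 6.06 FPKM and the difference from wild-type was -0.31 (SE 0.20, adjusted p = 0.36). The direct difference of Bcl11bm/m from cKO cells was 0.90 (SE 0.28) and did not pass the test (adjusted p = 0.0824). It passed without cKO replicate 3 (1.13, adjusted p = 0.0164), and adjusted p ran from 0.0149 to 0.218 over the alternatives.

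Cdkn2d, which encodes p19, had 27.7, 39.1, 48.0, 63.8 and 47.8 FPKM in wild-type replicates 1 to 5. It had 35.1, 26.5 and 25.8 FPKM in Bcl11bm/m and 20.4, 26.9, 20.9 and 29.5 FPKM in cKO libraries. The groups overlapped at wild-type replicate 1, with 2 of 3 Bcl11bm/m and 3 of 4 cKO libraries below it. Cdkn2d fell by 0.83 on the log2 scale in cKO cells (SE 0.22, adjusted p = 0.0344 by limma). This call was lost without wild-type replicate 2, 3, 4 or 5 (adjusted p = 0.0581, 0.073, 0.0558 and 0.0784), without cKO replicate 1, 3 or 4 (0.104, 0.098 and 0.0537) and without the filter on low values (0.0644). Over all alternatives the difference ran from -0.99 to -0.68 (adjusted p from 0.00413 to 0.104).

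In Bcl11bm/m cells the Cdkn2d difference was -0.58 (SE 0.25, adjusted p = 0.154). It passed the test after median-ratio scaling (adjusted p = 0.0415), after quantile normalization (0.0382), without short RNAs (0.0264) and without wild-type replicate 1 (0.0295), and adjusted p ran from 0.00879 to 0.557 over the alternatives. The direct difference between the mutants was 0.25 (SE 0.17, adjusted p = 0.382). The log2 ratio of Cdkn2d to Cdkn2c differed from wild-type by -0.28 in Bcl11bm/m and by 0.38 in cKO cells, and by -0.65 between the mutants (adjusted p from exact permutation tests 0.551 for each).

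The makeup of the inhibitors was also compared. Cdkn1b took 54.4 to 65.5% of the summed FPKM of the 4 inhibitors in wild-type, 59.5 to 64.5% in Bcl11bm/m and 69.5 to 72.5% in cKO libraries. The share of Cdkn2c was 17.9 to 22.5%, 15.6 to 24.1% and 8.30 to 17.3% in the same order, and that of Cdkn2d was 15.5 to 22.7%, 15.6 to 19.4% and 11.9 to 19.5%. The sum of the 4 was 179 to 281 FPKM in wild-type, 158 to 181 in Bcl11bm/m and 136 to 176 in cKO libraries. The shares were not tested.

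**Figure D2:**
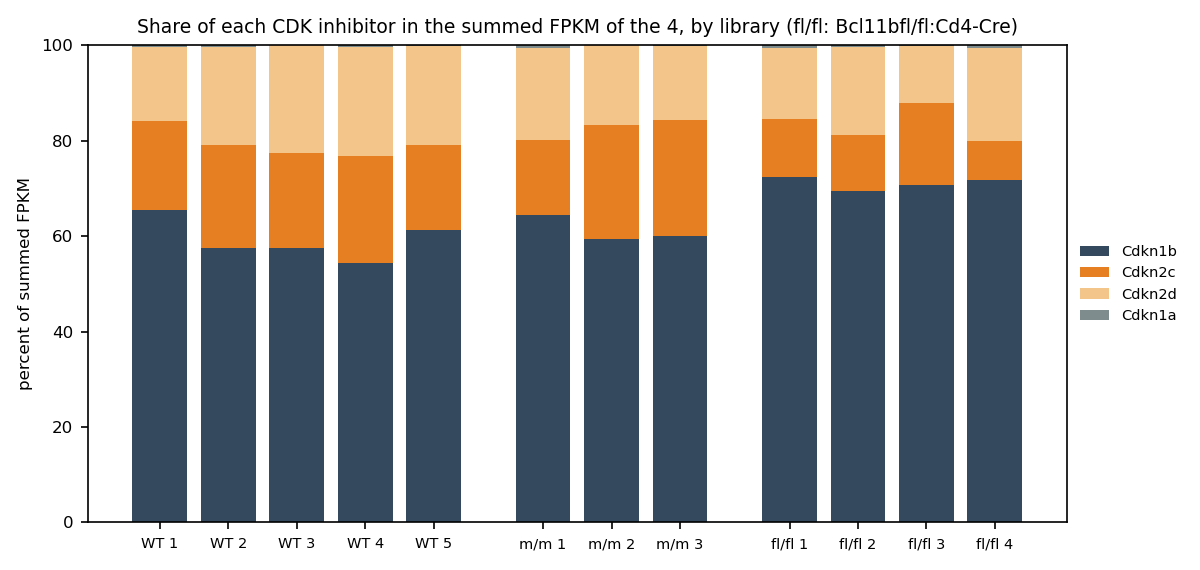
Share of Cdkn1b, Cdkn2c, Cdkn2d and Cdkn1a in their summed FPKM (y axis, percent), as stacked bars with 1 bar per library. In all 4 Bcl11bfl/fl:Cd4-Cre libraries (fl/fl) the share of Cdkn1b, 69.5 to 72.5%, is above that in every wild-type (WT) and Bcl11bm/m (m/m) library.

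Myc had 7.14, 11.3, 10.2, 10.3 and 8.39 FPKM in wild-type replicates 1 to 5. In Bcl11bm/m replicates 1 to 3 it had 54.4, 30.6 and 31.4 FPKM. In cKO replicates 1 to 4 it had 14.4, 7.04, 10.1 and 12.4 FPKM. The 3 Bcl11bm/m libraries lay above all 9 others, the nearest of which was cKO replicate 1. The cKO libraries were spread across and just beyond the wild-type range.

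Mean Myc was 38.8 ± 13.5 FPKM in Bcl11bm/m, 9.47 ± 1.68 in wild-type and 11.0 ± 3.16 in cKO cells. It rose by 1.89 on the log2 scale in Bcl11bm/m against wild-type cells (SE 0.22, adjusted p = 0.00092 by limma, higher in 3 of 3 libraries). It was higher by 1.72 in Bcl11bm/m than in cKO cells (SE 0.28, adjusted p = 0.0138). The difference of cKO from wild-type cells was 0.17 (SE 0.20, adjusted p = 0.613). Bcl11bm/m replicate 1 had the highest value, and without it the differences were 1.63 from wild-type (adjusted p = 0.0021) and 1.46 from cKO cells (adjusted p = 0.0318). Both calls held without any 1 library.

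Genes of earlier, CD4-CD8- (DN) thymocytes also differed between the groups. Of the 7 tested genes of the DN list 5 were higher and 1 lower in Bcl11bm/m than in wild-type cells. The tested genes include Kit and Hes1, at or below 0.563 and 0.259 FPKM in wild-type libraries. Both passed the filter on low values only through mutant libraries, which favours calls of higher genes. In cKO cells, where Myc was not called, 2 were higher and 0 lower, namely the Notch target genes Hes1 (difference 2.39, adjusted p = 0.0187) and Dtx1 (2.83, adjusted p = 0.0186). Between the mutants 2 were higher in Bcl11bm/m, Il2ra (3.37, adjusted p = 0.0121) and Kit. Kit had 2.95 to 3.09 FPKM in Bcl11bm/m and 0.238 to 0.735 FPKM in cKO libraries. It passed the filter only through the Bcl11bm/m libraries, so that its call is a description. Over all tested features 9.92% were called higher and 7.39% lower in Bcl11bm/m against wild-type cells. The shares were 4.65% and 9.86% in cKO against wild-type cells, and 7.63% were higher in Bcl11bm/m than in cKO cells. The counts of the DN list were not tested against these shares. The summed level of the list was 59.3 to 95.5 FPKM in wild-type, 131 to 295 in Bcl11bm/m and 69.3 to 235 in cKO libraries. Il2ra, which encodes CD25 and marks DN cells before β-selection, had 2.68 to 5.25, 33.5 to 117 and 2.19 to 8.18 FPKM in the same order. Ptcra, the pre-TCR chain of DN cells, went the other way, with 29.3 to 44.5 FPKM in wild-type and 5.34 to 12.2 FPKM in Bcl11bm/m libraries, while its cKO values of 8.97 to 67.0 FPKM reached below and above the wild-type range. Bcl11a stayed at or under 0.383 FPKM. Spib was at 0.637 to 0.946 FPKM in wild-type, 0.602 to 1.70 FPKM in Bcl11bm/m and 0.322 to 5.399 FPKM in cKO libraries. The part of DN cells in the Myc difference was not tested.

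The non-overlap of groups was also set beside the table as a whole. Between Bcl11bm/m and wild-type libraries 2 of the 8 tested genes, Ccnd3 and Myc, did not overlap, beside 25.4% of tested features. Between cKO and wild-type libraries 2 of 8, Ccnd3 and Cdkn2c, did not overlap, beside 16.1% of tested features. Between the mutants 1 of 8, Myc, did not overlap, beside 26.7% of tested features. These counts are a description and were not tested against the shares.

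**Figure D3:**
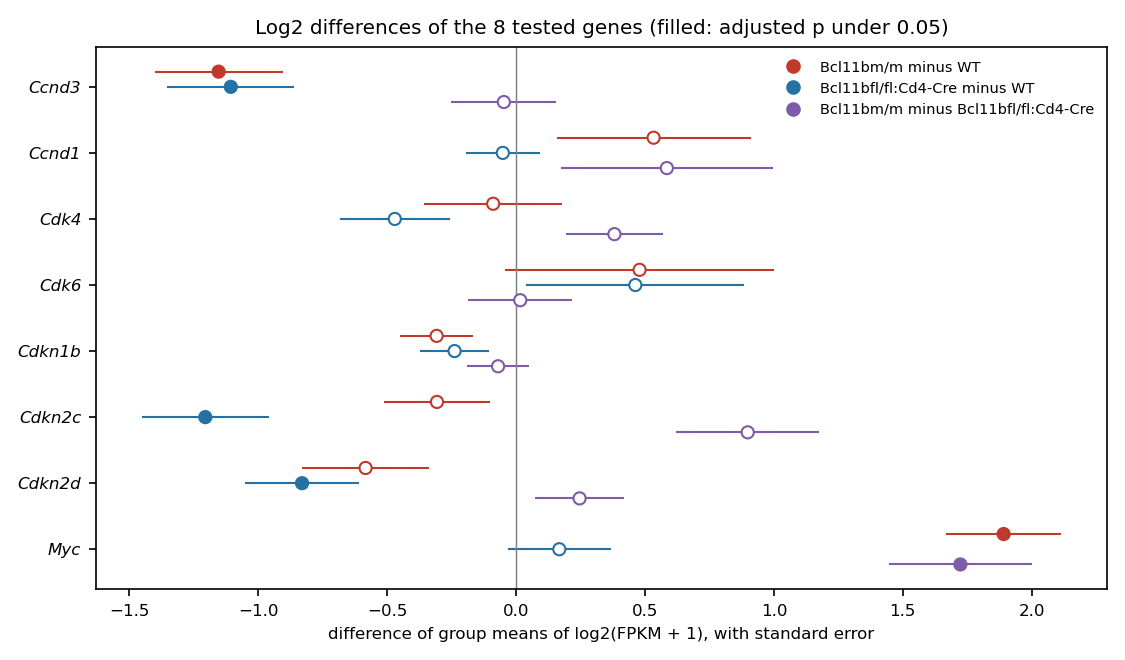
Difference of group means of log2(FPKM + 1) (x axis) for the 8 tested genes in 3 comparisons, with standard errors as bars. Filled points have an adjusted p under 0.05 by limma. Ccnd3 lies near -1.1 in both mutants against wild-type, Myc lies at 1.89 and 1.72 in the comparisons that contain Bcl11bm/m as first group, and Cdkn2c and Cdkn2d are filled for Bcl11bfl/fl:Cd4-Cre against wild-type.

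The order of the levels was largely shared. In wild-type cells it ran from Ccnd3 (507 FPKM) through Cdkn1b (129), Cdk4 (73.6), Cdkn2d (45.3), Cdkn2c (44.3), Myc (9.47), Cdk6 (7.78) and Ccnd1 (1.08) to Cdkn1a (0.487) and Ccnd2 (0.185). Each of the first 3 was above the next in all 5 libraries. Cdkn2d and Cdkn2c could not be ordered, nor Myc and Cdk6, since the first of each pair was higher in only 3 of 5 libraries. In Bcl11bm/m cells Myc ranked next after Cdk4 at 38.8 FPKM, not separated from Cdkn2c (35.2 FPKM, Myc higher in 1 of 3 libraries). In cKO cells the order down to Ccnd1 was as in wild-type, with Cdkn2d (24.4 FPKM) above Cdkn2c (19.2 FPKM) in 3 of 4 libraries and Myc (11.0 FPKM) above Cdk6 (9.57 FPKM) in 3 of 4.

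E2F factors, which cyclin D and CDK4 or CDK6 release, act on genes of DNA replication. Among 15 such genes 10 fell in Bcl11bm/m and 12 in cKO cells, beside 7.39% and 9.86% of all tested features. The median difference of the list was -0.70 and -0.91, beside -0.02 and -0.09 over all tested features, and every gene of the list had a negative difference in both comparisons. In Bcl11bm/m cells Mcm2, a subunit of the replicative helicase, fell by 0.93 on the log2 scale (28.0 against 54.3 FPKM, adjusted p = 0.00353). Cdc6, which loads that helicase, fell by 1.15 (adjusted p = 0.00802) and Rrm2, a subunit of ribonucleotide reductase, fell by 1.40 (adjusted p = 0.00839). In cKO cells Gins1 fell by 1.44 (4.86 against 14.4 FPKM, adjusted p = 0.00732), Mcm4 fell by 0.88 (adjusted p = 0.011) and Rrm1 fell by 1.22 (adjusted p = 0.011), all by limma.

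The summed level of the S phase list was 746 to 1154 FPKM in wild-type libraries. It was 477, 418 and 619 FPKM across the 3 Bcl11bm/m libraries and 381, 662, 506 and 323 FPKM in cKO replicates 1 to 4. As for Ccnd3, no mutant library reached the wild-type range. Between the mutants 0 of 15 genes were called by limma, 1 at an unadjusted p under 0.05, and the median was 0.18 beside 0.09 over all features.

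Of 12 genes of mitosis 8 fell in Bcl11bm/m and 12 in cKO cells, with medians of -1.10 and -2.02. Over all tested features 7.39% and 9.86% were called lower, with medians of -0.02 and -0.09. In Bcl11bm/m cells the spindle checkpoint kinase Bub1b fell by 1.05 (20.9 against 42.8 FPKM, adjusted p = 0.00802), the mitotic kinase Plk1 fell by 1.14 (adjusted p = 0.0115) and the spindle motor Kif11 fell by 1.31 (adjusted p = 0.0119). In cKO cells Plk1 fell by 2.17 (10.4 against 44.1 FPKM, adjusted p = 0.00517), Ube2c, which serves the anaphase-promoting complex, fell by 2.82 (adjusted p = 0.00557) and Bub1 fell by 1.89 (adjusted p = 0.00652). The summed level was 679 to 908 FPKM in wild-type libraries. It varied widely within the mutants, with 205, 320 and 561 FPKM across the 3 Bcl11bm/m libraries and 189, 369, 119 and 65.6 FPKM in cKO replicates 1 to 4. The highest of the cKO values, in replicate 2, was still below every wild-type library.

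Between the mutants all 12 mitosis genes had a positive difference, with a median of 0.84 beside 0.09 over all features. However, 0 of the 12 were called by limma and 0 had an unadjusted p under 0.05. The smallest adjusted p was 0.193.

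**Figure D4:**
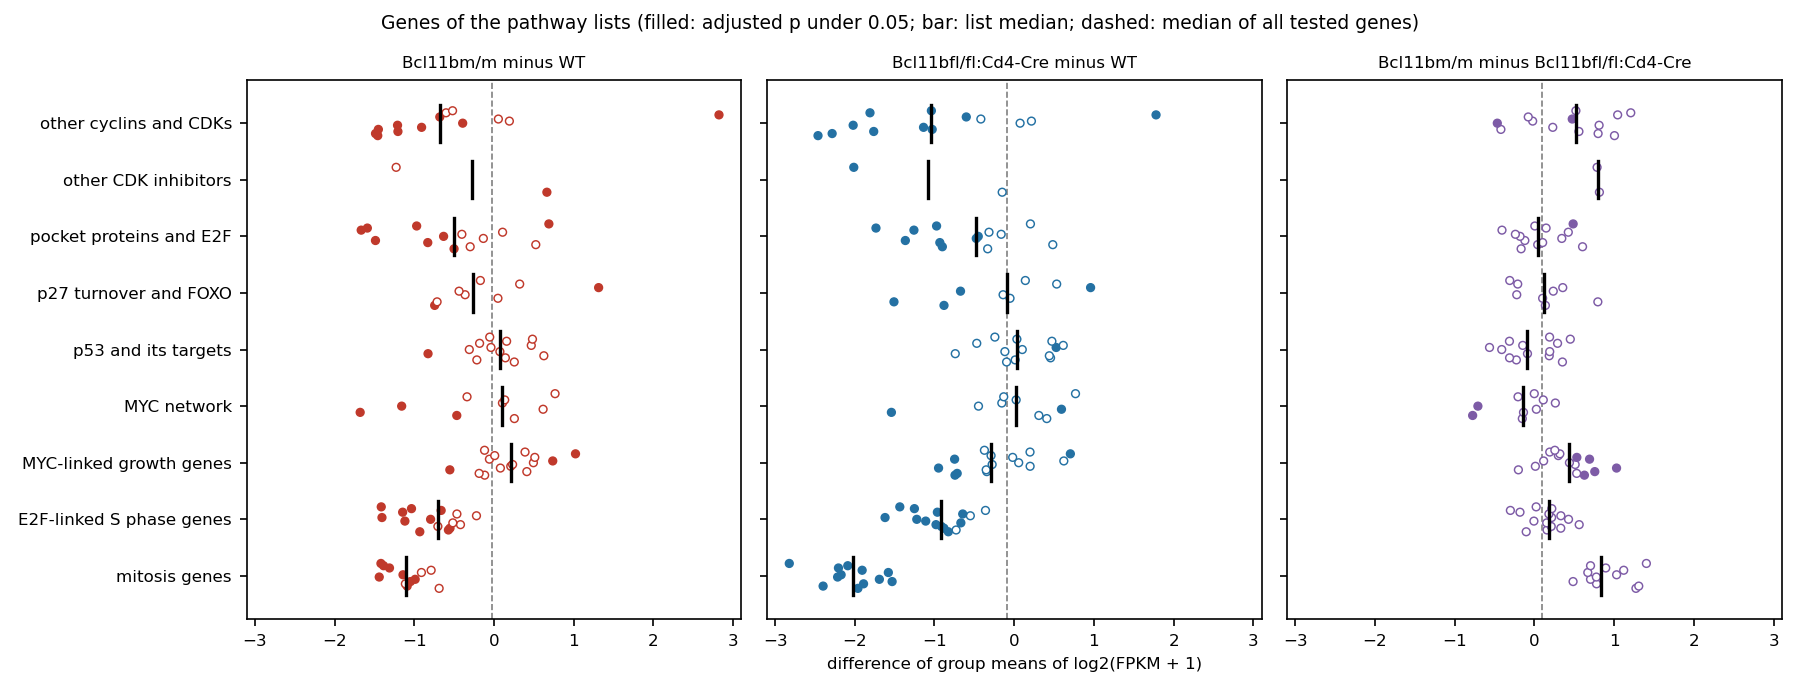
Difference of group means of log2(FPKM + 1) (x axes) for each tested gene of 9 pathway lists (rows) in 3 comparisons (panels). Filled points have an adjusted p under 0.05 by limma, black bars are list medians and the dashed line is the median of all tested features. S phase and mitosis genes lie left of 0 in both comparisons with wild-type, and MYC-linked growth genes lie mostly right of 0 in Bcl11bm/m against Bcl11bfl/fl:Cd4-Cre cells.

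Of 13 other cyclins and CDKs, with their phosphatases and the kinase Wee1, 8 fell and 1 rose in Bcl11bm/m cells (median -0.68). In cKO cells 9 fell and 1 rose (median -1.04). The shares of all tested features were 7.39% lower and 9.92% higher in Bcl11bm/m, and 9.86% lower and 4.65% higher in cKO cells. In Bcl11bm/m cells Ccne1, the cyclin partner of CDK2 at the entry to S phase, fell by 1.45 (3.41 against 11.3 FPKM, adjusted p = 0.00195) and the mitotic cyclin Ccnb1 fell by 1.49 (adjusted p = 0.00852). In cKO cells Ccnb1 fell by 2.28 (6.76 against 33.0 FPKM, adjusted p = 0.00437), the phosphatase gene Cdc25c fell by 1.81 (adjusted p = 0.00538) and Ccnb2 fell by 1.76 (adjusted p = 0.00656).

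The gene that rose in both mutants was Cdc25b, whose product removes inhibitory phosphates from CDKs. Its mean was 42.7 ± 11.6 FPKM in wild-type, 299 ± 8.81 in Bcl11bm/m and 159 ± 82.5 in cKO cells. The differences from wild-type were 2.82 (adjusted p = 0.00011) and 1.78 (adjusted p = 0.00791). Between the mutants Cdk2 differed by -0.47 in Bcl11bm/m (39.2 against 54.6 FPKM, adjusted p = 0.0313) and Ccnh by 0.47 (15.6 against 11.0 FPKM, adjusted p = 0.048). The Ccnh call was lost under median-ratio scaling, quantile normalization and removal of short RNAs, where 0 genes of the list were called higher.

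Of 13 pocket proteins and E2F factors, 7 fell and 1 rose in Bcl11bm/m cells (median -0.50), and 8 fell in cKO cells (median -0.48). Beside these counts, 7.39% of all tested features were lower and 9.92% higher in Bcl11bm/m, and 9.86% were lower in cKO cells. E2f2 was the most abundant E2F after E2f4 in wild-type cells and fell from 116 to 40.6 FPKM in Bcl11bm/m cells, by 1.49 on the log2 scale (adjusted p = 0.000205). E2f8 fell by 1.59 (adjusted p = 0.0025) and E2f7 fell by 1.67 (adjusted p = 0.00301), both atypical E2F repressors. In cKO cells the pocket protein gene Rbl1 fell by 0.90 (adjusted p = 0.00538), E2f2 fell by 1.37 (adjusted p = 0.0104) and E2f8 fell by 1.73 (adjusted p = 0.0135). Between the mutants Tfdp2, an E2F partner, was higher in Bcl11bm/m by 0.49 (adjusted p = 0.0221), the 1 call of the list.

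The other CDK inhibitors were scarce, and 2 of 4 were tested. Cdkn1c, which encodes p57, rose by 0.66 in Bcl11bm/m cells (3.68 against 1.94 FPKM, adjusted p = 0.0279), a call that was lost under quantile normalization. Cdkn3, a phosphatase of CDKs that is highest in dividing cells, fell by 2.01 in cKO cells (2.60 against 13.2 FPKM, adjusted p = 0.00335). Its difference in Bcl11bm/m cells was -1.23 (adjusted p = 0.0514), and it was called lower there under each of the 3 other scalings and without wild-type replicate 1. The difference of Cdkn3 between the mutants was 0.79 (adjusted p = 0.265).

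Of 8 genes of p27 turnover and FOXO factors, 1 rose and 1 fell in Bcl11bm/m, and 1 rose and 3 fell in cKO cells. The medians were -0.27 and -0.10, beside -0.02 and -0.09 over all tested features, of which 17.3% and 14.5% were called. The counts of this list and of the p53 list were not tested against these shares. Foxo1, a transcription factor that can activate Cdkn1b, rose from 11.0 FPKM in wild-type to 28.5 in Bcl11bm/m (difference 1.31, adjusted p = 0.00254) and 22.6 FPKM in cKO cells (0.96, adjusted p = 0.0161). Skp2, the ligase subunit that recognises p27 protein, fell by 0.74 in Bcl11bm/m (adjusted p = 0.0316) and fell by 0.88 in cKO cells (adjusted p = 0.0186). Its cofactor Cks1b fell by 1.51 in cKO cells (adjusted p = 0.0119). Cdkn1b RNA itself, as given above, did not pass the test in either mutant. The p53 list had 1 call of 13 in each comparison with wild-type, Bbc3 with a difference of -0.83 in Bcl11bm/m (adjusted p = 0.0158) and Sesn1 with one of 0.53 in cKO cells (adjusted p = 0.0356), with medians of 0.07 and 0.03. These counts were not stable. Without short RNAs 3 were called higher and 1 lower in Bcl11bm/m and 3 higher in cKO cells, and without wild-type replicate 1 the cKO cells had 1 higher and 2 lower, with a median of -0.04.

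The partners and antagonists of Myc were followed next. Of 9 tested genes of the MYC network 3 fell in Bcl11bm/m cells, all of them MXD-type repressors that compete with Myc for Max. Mxd4, the most abundant gene of this type, did not fall with them, with 232 against 149 FPKM (difference 0.62, adjusted p = 0.0559). Mxd3 fell by 1.68 (13.6 against 45.2 FPKM, adjusted p = 0.00272), Mxi1 fell by 1.16 (8.70 against 21.2 FPKM, adjusted p = 0.00939) and Mxd1 fell by 0.47 (6.68 against 9.60 FPKM, adjusted p = 0.0353). In cKO cells Mxd3 fell by 1.54 (adjusted p = 0.0136) and Mxd4 rose by 0.59 (adjusted p = 0.0238). Compared directly, Mxi1 and Mxd1 differed by -0.71 and -0.78 in Bcl11bm/m against cKO cells (adjusted p = 0.0215 and 0.0358). The median of the list was 0.11, 0.02 and -0.14 in the 3 comparisons. Of all tested features 17.3%, 14.5% and 10.2% were called in the same order.

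Among 15 genes of ribosome biogenesis and metabolism that Myc is known to activate, 2 rose and 1 fell in Bcl11bm/m cells (median 0.21 beside -0.02). Of all tested features 9.92% were called higher and 7.39% lower in this comparison, and the counts were not tested against these shares. Under other scalings 3 to 5 were called higher there. Polr1b, a subunit of RNA polymerase I, rose by 1.02 (5.70 against 2.30 FPKM, adjusted p = 0.00292) and Cad, which starts pyrimidine synthesis, by 0.74 (adjusted p = 0.0119), while the nucleolar protein gene Nop56 fell by 0.55 (adjusted p = 0.0162). In cKO cells, where Myc was not called, 4 fell and 1 rose (median -0.29 beside -0.09), and 4 were called lower and 3 higher without short RNAs. The shares of all tested features were 9.86% lower and 4.65% higher. Dkc1 fell by 0.75 (adjusted p = 0.00588), Nop58 fell by 0.95 (adjusted p = 0.00672) and Ncl fell by 0.74 (adjusted p = 0.00777), all of them nucleolar. The part of Myc in the differences of these growth genes was not tested.

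In the direct comparison 5 of the 15 were higher in Bcl11bm/m than in cKO cells, and 14 of 15 had a positive difference (median 0.44 beside 0.09). Of all tested features 7.63% were called higher there. Nop58 was higher by 1.03 (34.5 against 16.5 FPKM, adjusted p = 0.0127), Dkc1 by 0.69 (adjusted p = 0.0161) and Ncl by 0.63 (adjusted p = 0.0254). After median-ratio scaling 3 of the 15 were called higher and the median was 0.34. The summed level of the list was 646, 490 and 571 FPKM in Bcl11bm/m replicates 1 to 3, above all 4 cKO libraries (387 to 446 FPKM) and within the wild-type range (488 to 750 FPKM).

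These lists were also recounted under other scalings and without wild-type replicate 1, alternatives that were chosen after the data were seen. In Bcl11bm/m against wild-type cells the S phase genes called lower were 8 to 13 of 15 and the mitosis genes 8 of 12. In cKO cells they were 12 of 15 and 12 of 12 throughout. Counts of other lists moved as well. In Bcl11bm/m against wild-type cells the genes called higher were 2 to 5 of the MYC-linked growth list, 0 to 3 of the p53 list, 0 to 2 of the MYC network and 0 to 2 of the pocket proteins and E2F, and those called lower were 1 to 3 of the p27 list and 2 to 3 of the MYC network. In cKO against wild-type cells 1 to 3 growth genes were called higher and 4 to 6 lower, and 1 to 3 genes of the p53 list were called higher and 0 to 2 lower. Between the mutants 3 to 6 growth genes were called higher and 0 to 2 genes of the p53 list lower.

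The patterns over the 12 libraries most like those of the 3 genes with the widest range of group means were sought by the root mean square difference of log2(FPKM + 1) after each gene was centred on its own mean. Nearest to Myc were Trim30d (root mean square difference 0.28, beside 0.85 for Myc around its own mean), Stra8 (0.29) and Iigp1 (0.29). All 3 were low, with means of 3.25 to 4.25 FPKM in Bcl11bm/m, 0.261 to 0.661 in wild-type and 0.316 to 0.691 in cKO cells. They passed the filter on low values only through the Bcl11bm/m libraries, where Myc is high too. Their likeness to Myc is therefore a description. Nearest to Cdkn2c were Hist1h4i (0.29), Tubb4b (0.29) and Mcm6 (0.30), beside 0.62 for Cdkn2c itself. Mcm6 had 62.9 FPKM in wild-type, 46.7 in Bcl11bm/m and 31.9 FPKM in cKO cells.

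Nearest to Ccnd3 were Hmgb1-rs17 (0.14), Hmgb1 (0.17) and Cd24a (0.19), beside 0.64 for Ccnd3. Hmgb1, a chromatin protein gene, had 809 FPKM in wild-type, 385 in Bcl11bm/m and 363 FPKM in cKO cells. Hmgb1-rs17 is a related sequence that may share its fragments, and its values are uncertain. Cd24a, which encodes the surface marker used in the sort, had 182, 79.8 and 80.2 FPKM in the same order. The likeness describes these 12 libraries and was not tested.

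Markers of other cells were not equal between the groups. The lists of myeloid cells (6.55 to 12.9 FPKM in wild-type, 10.6 to 47.0 in Bcl11bm/m and 1.37 to 3.35 in cKO libraries), B cells (12.9 to 21.2, 7.59 to 35.1 and 11.6 to 36.6) and erythroid cells (2.36 to 33.9, 10.8 to 30.3 and 0.966 to 5.07) were small beside the pre-selection markers. Pax5, which sets B cell identity, was at or below 0.562 FPKM in all libraries. In cKO against wild-type cells 2 of 3 tested B cell genes were higher and 2 of 4 myeloid genes lower, and in Bcl11bm/m against wild-type cells 1 myeloid gene was higher. The tested B cell genes include Cd79a and Blk, at or below 0.446 and 0.145 FPKM in wild-type libraries. Both passed the filter on low values only through mutant libraries, which favours calls of higher genes. Between the mutants 3 of 4 myeloid and 2 of 3 erythroid genes were higher in Bcl11bm/m. The NK list, mostly Gzma, was higher in Bcl11bm/m (223 to 431 FPKM) than in wild-type (16.8 to 68.9) and cKO libraries (65.0 to 192). All 3 of its tested genes were called higher in Bcl11bm/m than in wild-type cells, and 1 of the 3 higher than in cKO cells. Klrb1c, which is among the 3, passed the filter on low values only through mutant libraries, so that its call is a description. Gzma had 16.4 to 67.1, 202 to 409 and 64.3 to 160 FPKM in wild-type, Bcl11bm/m and cKO libraries, and Tyrobp 0.397 to 2.07, 8.47 to 21.2 and 0.203 to 4.55 FPKM. Klrb1c reached 0.605, 6.94 and 21.8 FPKM and Klrd1 0, 0.552 and 5.49 FPKM in the same order, both highest in a cKO library, and Ncr1 was at or below 0.192 FPKM. In cKO against wild-type cells 1 of the 3, Gzma, was called higher. The stroma list was 41.0 to 68.3, 144 to 165 and 83.4 to 129 FPKM, mostly Pecam1, with Foxn1 at or below 0.0703 FPKM, and of its 3 tested genes 1 was higher and 1 lower in each mutant than in wild-type. Post-selection and mature thymocyte genes summed to 429 to 634, 370 to 462 and 195 to 455 FPKM, with 4 of 10 higher and 3 lower in Bcl11bm/m and 3 higher and 2 lower in cKO cells. Of these genes S1pr1 and Il7r, at or below 0.0572 and 0.0885 FPKM in wild-type, passed the filter only through mutant libraries. Of the pre-selection markers 5 of 8 were lower in Bcl11bm/m and 1 of 8 in cKO cells. Over all tested features 9.92% were called higher and 7.39% lower in Bcl11bm/m, and 4.65% and 9.86% in cKO against wild-type cells. Between the mutants 7.63% were higher in Bcl11bm/m. The marker counts, some from only 3 or 4 tested genes, were not tested against these shares. The part of these marker differences in the changes of Ccnd3, Cdkn2c, Cdkn2d and Myc was not tested.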

How the data were processed

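RNA of sorted thymocytes was sequenced as 12 libraries by the authors, who mapped reads with TopHat2 (2.8.0) and computed FPKM per gene with Cufflinks (2.1.1), per the submitters' processing notes, on mm9. The deposited FPKM values were used without further scaling. The study's methods name a strand-specific SureSelect kit and the labels a low-input SMARTer kit, so that library chemistry and the use of strand are uncertain. Groups came from the titles. The 10 genes, the pathway and marker lists and the rules for naming genes (the 3 called genes of smallest adjusted p per list and comparison, and the 3 nearest patterns for each of 3 genes) were chosen with earlier results of these data known.

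Values were taken as log2(FPKM + 1), and fold changes on this scale understate the change of low genes. Of 23234 features, the 10780 whose mean reached 1 FPKM were fitted with limma 3.58.1 in R 4.3.3 (lmFit, eBayes with a trend), separately for each pair of groups, with two-sided p-values adjusted by Benjamini-Hochberg and called under 0.05. On simulated data with 200 genes changed by 1.5 on the log2 scale among 10780, the test recovered 84% in Bcl11bm/m against wild-type, 88% in cKO against wild-type and 81% between the mutants, with 3.4%, 5.4% and 5.3% false calls. Ratios within families were compared by two-sided exact permutation tests over libraries, adjusted over 12 tests. Depth was estimated from low FPKM values of genes with a single transcript, of which 63.4 to 67.7% came within 0.1 of a whole number of fragments (20% by even spread). Positions came from GENCODE vM1 on NCBIM37 (mm9), promoters from RefSeq. Tried as alternatives were median-ratio scaling and quantile normalization, a pseudocount of 0.1, a filter at 5 FPKM and none, removal of 729 short RNAs and rescaling, limma's array weights, a joint fit of the 3 groups, a block on the replicate number, and leaving out each replicate. Gene lists were recounted under scalings chosen after seeing the data. The outlier check found 0 of 20 groups. Other steps used Python 3.11.15, pandas 2.3.3, numpy 2.4.6, scipy 1.17.1 and matplotlib 3.10.9. A few genes of the marker lists are not reported here and were left out of the sums and counts.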

Additional observations from a re-analysis of the deposited data

How the results depend on the processing

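The values of single genes mostly kept their direction and their side of the threshold: of the log2 differences under alternatives 359 did so, 11 passed the threshold newly, 16 no longer passed it and 19 changed sign, all of the last among differences that were not called. Library quality weights raised and the replicate block lowered the number of called features. With weights it was 3604 in Bcl11bm/m against wild-type, 3176 in cKO against wild-type and 2173 between the mutants, with 4, 4 and 2 of the 10 genes called. A mean of at least 5 FPKM, which leaves fewer features, gave 1189 and 656 in the first and the last comparison. Leaving out 1 replicate gave 1021 to 2349, 700 to 2678 and 313 to 1121 features, and 1 to 3, 1 to 4 and 1 to 2 of the 10 genes. The cause of these shifts was not tested.

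The labels give no pairing of the libraries beyond the replicate number. Same-numbered libraries correlated between -0.211 and 0.152 in their deviations from the group means. Libraries of different numbers were not compared in this way, so these values cannot decide whether same-numbered libraries belong together. With the replicate block as a paired fit, 283, 456 and 30 features and 0, 1 and 1 of the 10 genes were called by limma (2186, 2983 and 2178 features at an unadjusted p under 0.05). In Bcl11bm/m against wild-type cells the difference of Myc was then 1.89 (adjusted p = 0.0827) and that of Ccnd3 -0.95 (0.161), and in cKO cells that of Cdkn2c was -1.22 (0.0644) and that of Cdkn2d -0.80 (0.0543).

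Signs changed as follows. Ccnd1 in cKO against wild-type cells was 0.0734 with weights, 0.00237 after median-ratio scaling and 0.0246 without short RNAs. Ccnd3 between the mutants was 0.0553 with weights, 0.0688 with the replicate block and -0.154 to 0.0688 without 1 replicate. Cdk4 in Bcl11bm/m against wild-type cells was 0.0105 after quantile normalization, 0.0104 without short RNAs and -0.290 to 0.0754 without 1 replicate. Cdk6 between the mutants was -0.0879 after median-ratio scaling, -0.0928 after quantile normalization, -0.0360 with the replicate block, -0.0293 without short RNAs and -0.126 to 0.259 without 1 replicate. Among the ratios, Ccnd3 to Ccnd2 between the mutants ran from -0.255 to 0.304 and Cdk6 to Cdk4 from -0.629 to 0.0782 without 1 replicate. Cdkn1b to Cdkn1a in Bcl11bm/m against wild-type cells was 0.326 with a pseudocount of 0.1 and -0.254 to 0.0372 without 1 replicate. Depth limits Ccnd2 and Cdkn1a, which rest on few fragments outside the cKO libraries.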
